A study of Homo sapiens with 6 samples.

Results

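A set of 10 genes of the Notch pathway was followed in KGN cells, a human line grown from an ovarian granulosa cell tumour: the receptor genes NOTCH1, NOTCH2 and NOTCH3, the ligand genes JAG1 and JAG2, the sugar transferase gene LFNG, the nuclear partners RBPJ and MAML1, and the target genes HES1 and HEY1. They were chosen by symbol, and all 10 were found among the 20030 gene names of the count table. Messenger RNA libraries were made 48 h after transfection, 3 from wild-type KGN cells given a negative control siRNA (control cells) and 3 from KGN cells given siRNA against the long noncoding RNA SNHG5, which the labels describe as knocked down (SNHG5 siRNA cells). All 6 libraries come from the same tumour line, and no siRNA sequence is given in the sources used here, so an effect of one siRNA sequence and one of SNHG5 cannot be told apart. SNHG5 itself was not analysed here, so its level under either siRNA cannot be given.

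Notch receptors sit in the cell surface and are read by Delta-like and Jagged ligands on a neighbouring cell. Ligand binding lets an ADAM protease and then gamma-secretase cut the receptor, and the freed intracellular part enters the nucleus, where it joins the DNA-binding protein RBPJ and a Mastermind co-activator and raises genes of the HES and HEY repressors. Fringe enzymes such as LFNG extend the O-linked fucose on the receptor and so change which ligands it answers. In the ovary the pathway is known for contacts between the oocyte and granulosa cells and for growth of the follicle.

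In SNHG5 siRNA cells the transcripts of LFNG and JAG1 were lower, LFNG by 2.07-fold and JAG1 by 1.72-fold, and both changes were far larger than the spread between libraries. JAG2 also fell, by 1.35-fold, and NOTCH1 by 1.21-fold, and RBPJ rose by 1.17-fold. NOTCH2, NOTCH3, MAML1, HES1 and HEY1 did not pass the test. Of the 10 members, all of which were tested, 4 fell, 1 rose and 5 did not pass the quasi-likelihood test of edgeR at a Benjamini-Hochberg adjusted p under 0.05. Without control siRNA replicate 1, or without control siRNA replicate 2, 2 members fell in place of 4. The measurements are levels in whole cultures, in which fewer cells of a kind and less RNA per cell cannot be told apart. Over all 12508 genes tested, 40.2% passed, 19.9% lower and 20.3% higher, so a share of 5 in 10 is near the background and says nothing particular about the members. Their median log2 fold change (SNHG5 siRNA minus control siRNA) was -0.11, against -0.01 over all genes tested. The levels of the groups, in CPM (counts scaled to library size), did not overlap in 4 of the 10 members, JAG1, JAG2, LFNG and RBPJ, against 49.8% of all genes tested.

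The libraries held 18232634 to 22088913 counts, and log2 CPM had Spearman correlations of 0.996 to 0.998 within groups and 0.987 to 0.989 between them. SNHG5 siRNA replicate 2 was low in genes with long transcripts: across genes, the Spearman correlation of its deviation from the group mean with transcript length was -0.494, against -0.250 to 0.396 in the other 5 libraries. GC content of the transcript was negatively related to the change: Spearman's correlation was -0.221 over 12348 genes, which are not independent replicates. Of 14 granulosa markers 10 were tested, among them FOXL2, NR5A1 and GATA4, while AMHR2, INHA, CYP19A1 and HSD17B1 were too low. Of the 10, 4 fell and 1 rose, beside 19.9% and 20.3% of all genes tested. Those that fell were FST (log2 fold change -1.42), FSHR (-1.15), WNT4 (-0.76) and GATA4 (-0.37), and INHBB rose (1.10). FOXL2, AMH, INHBA, NR5A1 and STAR did not pass. The summed level of the 14 was 1058 to 1146 CPM in control cells and 551 to 589 CPM in SNHG5 siRNA cells, a gap set mainly by FST. Of the markers of other cells, CYP17A1, INSL3, LHCGR and LUM of theca and stroma, CDH5 of endothelium and CD3E and LYZ of leukocytes were at 0 in all 6 libraries. Others were present and were tested: PDGFRA of the stroma list, KDR, TEK and VWF of the endothelium list, PTPRC and CD68 of the leukocyte list, and CDH1 and KRT7 of the epithelium list, of which KDR and KRT7 fell. The summed markers of endothelium, 33.3 to 38.0 CPM in control cells and 16.8 to 19.4 CPM in SNHG5 siRNA cells, moved with the groups through KDR. Summed markers of theca and stroma were at 29.4 to 32.0 and 25.5 to 28.99 CPM, of leukocytes at 22.2 to 26.2 and 27.3 to 28.98, and of epithelium at 29.4 to 30.3 and 20.8 to 24.8, in the same order of groups. The part of these shifts in the Notch results was not tested.

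The promoters of 9 members were found by symbol in a table of RefSeq promoters (GRCh38.p14, 250 bases before to 50 after each start), and 2 of them, HES1 and RBPJ, hold GTGGGAA, a word that RBPJ is known to bind, on either strand. Among tested genes with a promoter in that table, 7.73% of 9938 hold it. The stretches with the words are shown because HES1 is the classical reader of this pathway and RBPJ is the member that rose. Capitals mark GTGGGAA or its reverse complement TTCCCAC and, in HES1, TTCACAC, the reverse complement of the related word GTGTGAA, which 2.85% of those genes hold; the words do not overlap. The HES1 stretch is chr3:194136028-194136147 and the RBPJ stretch is chr4:26319611-26319730, both on the plus strand.
HES1: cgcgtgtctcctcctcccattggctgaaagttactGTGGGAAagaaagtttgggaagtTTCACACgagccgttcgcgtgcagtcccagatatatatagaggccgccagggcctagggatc
RBPJ: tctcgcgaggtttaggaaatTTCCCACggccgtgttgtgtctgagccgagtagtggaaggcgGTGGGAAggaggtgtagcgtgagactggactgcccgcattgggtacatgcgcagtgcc
In HES1 the words begin 85 and 62 bases before the start site, with 16 bases between them. For RBPJ the table lists 5 starts, and the words lie before 1 of them, at 26319746, an internal start within the gene span; they begin 115 and 73 bases before it, with 35 bases between them. These matches are a description of the letters and not a measurement of binding.

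The series title names miR-92a-3p, whose mature sequence is shown with its seed, bases 2 to 8, in capitals.
hsa-miR-92a-3p: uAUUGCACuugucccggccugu
The matching word in a 3' UTR is GTGCAAT. None of the 10 members held it in an annotated 3' UTR of GENCODE v29 (0 of 10, read on the sense strand), while 14.2% of 12292 tested genes did. The absence says only that these letters are not in those UTRs.

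**Figure D1:**
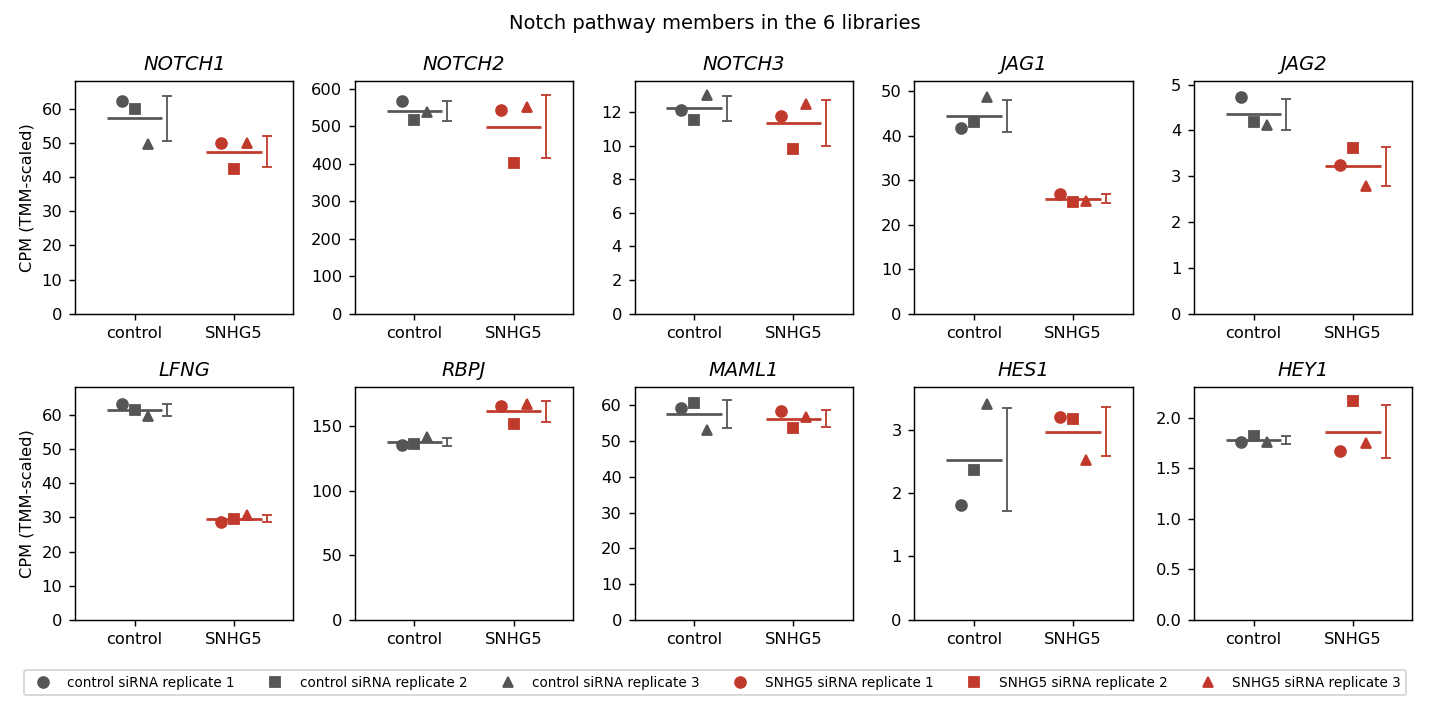
CPM (TMM-scaled, linear axis from 0) of the 10 members in the 3 control siRNA libraries (grey) and the 3 SNHG5 siRNA libraries (red), with symbols for replicate numbers, horizontal lines for group means and bars for ± 1 SD. JAG1 and LFNG separate widely, JAG2 and RBPJ narrowly, and SNHG5 siRNA replicate 2 is the lowest NOTCH2 library at 402 CPM.

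NOTCH2 was the leading receptor transcript and NOTCH3 the weakest of the 3. Levels between genes are given in the authors' FPKM, a unit per gene length; how they were computed is not stated in the labels. These FPKM are not a fixed multiple of the counts: CPM divided by FPKM differed between libraries by 1.02-fold for NOTCH2 and up to 1.254-fold for JAG2. For NOTCH1 it was 9.37 to 10.5 in control cells and 8.54 to 9.28 in SNHG5 siRNA cells, so it separated the groups. It also separated them for NOTCH2, JAG1, MAML1 and HEY1, and overlapped for NOTCH3, JAG2, LFNG, RBPJ and HES1. All shares and ranks of level rest on these values. As a share of the summed receptor FPKM, NOTCH2 made up 82.2% ± 0.688 in control cells and 82.0% ± 1.66 in SNHG5 siRNA cells (mean ± SD, n = 3 each). NOTCH1 made up 13.8% ± 0.916 and 13.8% ± 1.42, and NOTCH3 3.94% ± 0.501 and 4.15% ± 0.248. In these FPKM the makeup of the receptor pool thus differed between groups by less than the spread between libraries. As CPM per FPKM of NOTCH1 itself differed by group, this does not extend to the counts. NOTCH4, with 1 to 3 counts in each library, was too low to test.

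NOTCH1 (chromosome 9, 136494433 to 136545786, minus strand, GRCh38, GENCODE v29), a receptor of many tissues, had 62.2, 59.9 and 49.9 CPM in control siRNA replicates 1, 2 and 3 and 50.2, 42.4 and 50.003 CPM in SNHG5 siRNA replicates 1, 2 and 3. The lowest control library lay just under the highest SNHG5 siRNA library, so the groups overlapped. NOTCH1 had a log2 fold change of -0.27 ± 0.08 (SE), with an edgeR adjusted p of 0.0116. NOTCH1 no longer passed without control siRNA replicate 1 (-0.21, adjusted p = 0.0769) or without control siRNA replicate 2 (-0.24, adjusted p = 0.0535), and also with the GC trend removed (-0.16, adjusted p = 0.129). NOTCH1 transcripts are GC-rich, at 62.9% in the longest annotated one, and in the authors' FPKM the log2 fold change was -0.10 with 1 added (adjusted p = 0.271 by limma).

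NOTCH2 (chromosome 1, 119911553 to 120069626, minus strand) had 567, 516 and 538 CPM in control siRNA replicates 1, 2 and 3 and 542, 402 and 551 CPM in SNHG5 siRNA replicates 1, 2 and 3. Replicate 2 of SNHG5 siRNA lay below every other library, while the other SNHG5 siRNA libraries fell inside the control range. The log2 fold change was -0.12 (95% interval -0.29 to 0.06), with an edgeR adjusted p of 0.275. Without SNHG5 siRNA replicate 2 it was 0.02 (adjusted p = 0.753). The longest NOTCH2 transcript has 11389 bases, and with the length trend removed the value over all 6 libraries was -0.10 (adjusted p = 0.353).

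NOTCH2 has near-identical copies on the same chromosome, and how shared reads were split is not given in the sources used here, so its count is uncertain. The copy listed as NOTCH2NL, named after its values were seen, had 10.0 ± 0.915 CPM in control cells and 6.88 ± 0.466 CPM in SNHG5 siRNA cells (mean ± SD, n = 3 each). Its log2 fold change was -0.54 (edgeR adjusted p = 6.79e-04), at a level far under that of NOTCH2.

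NOTCH3 (chromosome 19, 15159038 to 15200981, minus strand), best known from vascular smooth muscle, had 12.1, 11.5 and 13.0 CPM in control cells and 11.8, 9.81 and 12.5 CPM in SNHG5 siRNA cells. The groups overlapped, and SNHG5 siRNA replicate 2 was again the lowest library. The log2 fold change was -0.10 (95% interval -0.32 to 0.11) and did not pass (edgeR adjusted p = 0.440); without SNHG5 siRNA replicate 2 it was -0.0087.

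Among ligands, JAG1 was the most abundant and fell clearly. JAG1 (chromosome 20, 10637684 to 10673999, minus strand), the Jagged ligand best known from the heart, bile ducts and oocyte, had 41.8, 43.1 and 48.6 CPM in control siRNA replicates 1, 2 and 3 and 26.9, 25.2 and 25.2 CPM in SNHG5 siRNA replicates 1, 2 and 3. Every SNHG5 siRNA library lay well below every control library. JAG1 had a log2 fold change of -0.79 ± 0.07 (SE), with an edgeR adjusted p of 1.23e-07, and its absolute change ranked 521 among the 12508. It passed in all 16 alternative settings, at -0.83 to -0.59. The use of strand in counting is not given in the sources used here, and an exon of JAG1 overlaps AL050403.2 on the opposite strand, so reads of both cannot be told apart.

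JAG2 (chromosome 14, 105140981 to 105168824, minus strand), the second Jagged ligand, was low, with 97, 85 and 75 counts in control cells and 72, 72 and 54 counts in SNHG5 siRNA cells. This came to 4.74, 4.19 and 4.12 CPM against 3.25, 3.62 and 2.78 CPM, without overlap. JAG2 had a log2 fold change of -0.43 ± 0.16 (SE), with an edgeR adjusted p of 0.0345. JAG2 no longer passed when a library other than SNHG5 siRNA replicate 2 was left out, with values from -0.47 to -0.34 and adjusted p up to 0.140, and it was -0.43 with DESeq2 (adjusted p = 0.128) and -0.31 with the GC trend removed (adjusted p = 0.125). An exon of JAG2 overlaps AL512356.1 on the same strand.

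JAG1 made up 87.3% ± 1.48 of the summed FPKM of both Jagged genes in control cells and 85.6% ± 2.96 in SNHG5 siRNA cells (mean ± SD, n = 3 each), a difference within the spread between libraries. The Delta-like ligand genes were far lower than JAG1 and less far below JAG2. In control cells DLL1, DLL3 and DLL4 had means of 0.235, 0.364 and 0.167 FPKM, against 5.84 for JAG1 and 0.843 for JAG2. DLL1 had 18, 17 and 21 counts in control cells and 8, 11 and 13 in SNHG5 siRNA cells, and its log2 fold change of -0.86 ± 0.35 (SE) did not pass (edgeR adjusted p = 0.0567), though it did with upper quartile scaling (-0.90, adjusted p = 0.0451) and by limma in log2(FPKM + 1) with no filter (-0.13, adjusted p = 0.0287). DLL3 and DLL4, at under 1 CPM on average in each group, did not pass either, and DLK1 was at 0 in every library, in which 3 counts would be 0.136 to 0.165 CPM.

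LFNG (chromosome 7, 2512529 to 2529177, plus strand), the Lunatic fringe enzyme, showed the largest change of the 10 members. It had 63.2, 61.5 and 59.8 CPM in control siRNA replicates 1, 2 and 3 and 28.8, 29.5 and 30.7 CPM in SNHG5 siRNA replicates 1, 2 and 3. The libraries within a group lay within a few CPM of each other, and a wide gap separated the groups. LFNG had a log2 fold change of -1.05 ± 0.06 (SE), with an edgeR adjusted p of 1.80e-10, and its absolute change ranked 215 among the 12508. It passed in all 16 alternative settings, at -1.09 to -0.90, and in FPKM it went from 21.2 ± 0.359 to 10.9 ± 0.211 (mean ± SD, n = 3 each).

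RFNG, Radical fringe, went from 17.6 ± 1.26 to 14.4 ± 0.839 CPM (mean ± SD, n = 3 each), a log2 fold change of -0.28 (edgeR adjusted p = 0.0142). RFNG no longer passed without control siRNA replicate 1 (-0.22) or without SNHG5 siRNA replicate 3 (-0.24), and with the GC trend removed (-0.14). MFNG, Manic fringe, had 1 to 10 counts a library and was not tested. As a share of the summed fringe FPKM, LFNG went from 72.8% ± 0.597 in control cells to 59.8% ± 2.92 in SNHG5 siRNA cells. The share of RFNG went from 26.9% ± 0.412 to 39.7% ± 2.97, and neither share overlapped between groups. RFNG itself had 7.83 ± 0.290 FPKM in control cells and 7.25 ± 0.795 FPKM in SNHG5 siRNA cells, and these overlapped. Its share thus rose without a rise in its own level. POFUT1, which places the fucose that fringe enzymes extend, rose from 106 ± 2.93 to 124 ± 3.80 CPM (log2 fold change 0.22, edgeR adjusted p = 0.00227).

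RBPJ (chromosome 4, 26163455 to 26435131, plus strand), the DNA-binding partner of the freed receptor, was the member that rose. It had 135, 136 and 141 CPM in control siRNA replicates 1, 2 and 3 and 165, 151 and 167 CPM in SNHG5 siRNA replicates 1, 2 and 3. The SNHG5 siRNA libraries were all above the control libraries, replicate 2 by the least. RBPJ had a log2 fold change of 0.23 ± 0.05 (SE), with an edgeR adjusted p of 0.00223. In the authors' FPKM the groups overlapped, at 17.9, 17.6 and 17.2 against 20.1, 17.6 and 20.7, and the change was 0.14 with 1 added and did not pass (adjusted p = 0.113 by limma). The longest annotated RBPJ transcript is 38.0% GC, and removal of the GC trend left a log2 fold change of 0.16 (edgeR adjusted p = 0.0212).

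MAML1 (chromosome 5, 179732850 to 179777286, plus strand), a Mastermind co-activator, had 59.2, 60.5 and 53.1 CPM in control cells and 58.4, 53.7 and 56.6 CPM in SNHG5 siRNA cells. The SNHG5 siRNA libraries all lay inside the control range. The log2 fold change was -0.04, with a 95% interval of -0.17 to 0.10 (edgeR adjusted p = 0.696), and its sign turned without control siRNA replicate 2 (0.0017). Of its relatives, MAML3 fell from 15.8 ± 0.839 to 9.85 ± 0.556 CPM (mean ± SD, n = 3 each; log2 fold change -0.68, edgeR adjusted p = 7.95e-06), while MAML2 had a log2 fold change of 0.20 and did not pass (edgeR adjusted p = 0.0518). MAML2 was added to the named genes after its values were seen.

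Both target genes were low and neither passed. HES1 (chromosome 3, 194136145 to 194138732, plus strand), the repressor most used as a reader of Notch activity, had 37, 48 and 62 counts in control siRNA replicates 1, 2 and 3 and 71, 63 and 49 counts in SNHG5 siRNA replicates 1, 2 and 3. In CPM these were 1.81, 2.36 and 3.41 against 3.20, 3.17 and 2.52, so the control libraries alone spanned more than the whole SNHG5 siRNA range. HES1 had a log2 fold change of 0.25 (95% interval -0.20 to 0.70, edgeR adjusted p = 0.383), and it lay between 0.05, without control siRNA replicate 1, and 0.51, without control siRNA replicate 3, passing in none of the 16 alternative settings.

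HEY1 (chromosome 8, 79764010 to 79767863, minus strand), a related repressor, had 36, 37 and 32 counts in control cells and 37, 43 and 34 in SNHG5 siRNA cells. In CPM these were 1.76, 1.82 and 1.76 against 1.67, 2.16 and 1.75, which overlap. HEY1 had a log2 fold change of 0.06, with a 95% interval of -0.39 to 0.51 (edgeR adjusted p = 0.852), and it turned to -0.06 without SNHG5 siRNA replicate 2.

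Of 8 other genes of the HES and HEY family and its feedback, 4 were tested, 2 fell and 0 rose, beside 19.9% of all tested genes that fell; 4 genes are too few to read more from this. HES7, an oscillating repressor of somite formation, had 41, 42 and 32 counts in control cells and 19, 10 and 16 in SNHG5 siRNA cells, or 1.94 ± 0.163 and 0.728 ± 0.196 CPM (mean ± SD, n = 3 each). HES7 fell by 1.41 ± 0.27 (SE) on the log2 scale, with an edgeR adjusted p of 3.84e-04. HES6 went from 8.999 ± 0.710 to 6.59 ± 0.636 CPM (log2 fold change -0.45, edgeR adjusted p = 0.00425; 0.0543 by limma in log2(FPKM + 1) with no filter). HES4 and NRARP did not pass, and HES5 and HEY2 were at 0 in every library.

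**Figure D2:**
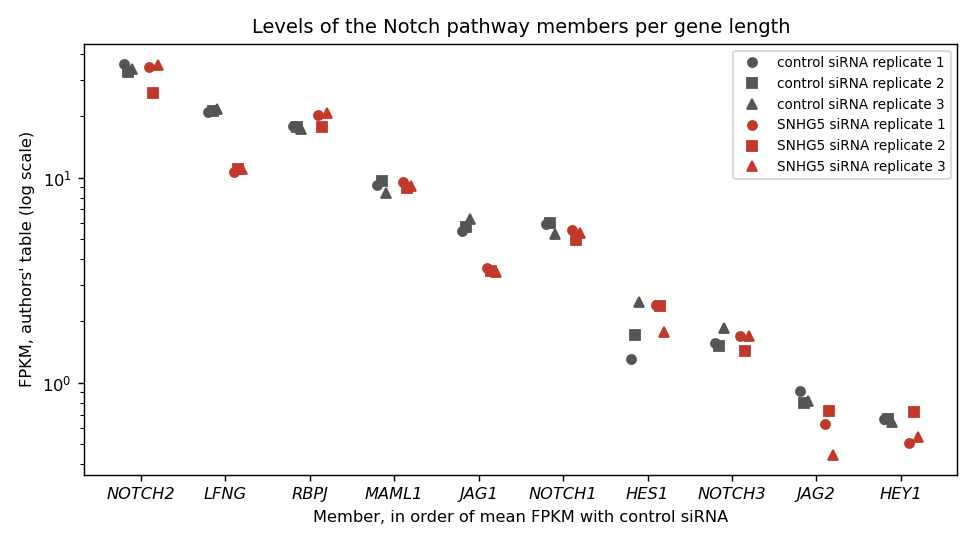
FPKM of the 10 members from the authors' table (log axis) in the 3 control siRNA libraries (grey) and the 3 SNHG5 siRNA libraries (red), ordered by the control siRNA mean. NOTCH2 is highest at 34.2 and HEY1 lowest at 0.656 in control cells, and LFNG and RBPJ change places between groups.

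In the authors' FPKM, with the doubt over their computation given above, the order in control cells was NOTCH2 at 34.2 ± 1.59 FPKM, LFNG at 21.2 ± 0.359, RBPJ at 17.6 ± 0.338, MAML1 at 9.07 ± 0.596, JAG1 at 5.84 ± 0.396 and NOTCH1 at 5.74 ± 0.366 (mean ± SD, n = 3). HES1 followed at 1.83 ± 0.602, NOTCH3 at 1.64 ± 0.185, JAG2 at 0.843 ± 0.0643 and HEY1 at 0.656 ± 0.0136 FPKM. Neighbours overlapped at 2 places in this group, JAG1 with NOTCH1 and HES1 with NOTCH3. In SNHG5 siRNA cells the order was NOTCH2, RBPJ, LFNG, MAML1, NOTCH1, JAG1, HES1, NOTCH3, JAG2 and HEY1, so LFNG passed from above RBPJ to below it and JAG1 from beside NOTCH1 to below it. In that group only JAG2 and HEY1 overlapped.

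Beyond the 10 members, 52 other genes of the pathway were followed by role; 41 were tested, of which 8 rose, 10 fell and 23 did not pass, and their median log2 fold change was -0.10. A share of 18 in 41 is again near the 40.2% of all genes. Each single role holds few genes, too few to read its count as a result about the role. Without SNHG5 siRNA replicate 2 the counts were 9 higher and 7 lower, without control siRNA replicate 1 they were 7 and 4, and without control siRNA replicate 3 they were 6 and 6. In the authors' FPKM with 1 added, 7 were higher and 3 lower of 36 tested, and RFNG, MIB2, CREBBP, EP300, NUMBL, FBXW7 and KAT2B were among those that did not pass.

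Transcripts of APH1B, NCSTN and APH1A rose, all subunits of gamma-secretase, the membrane protease that frees the intracellular part of the receptor. APH1B, a scaffold subunit, had 26.1, 28.1 and 25.4 CPM in control cells and 46.6, 45.7 and 43.7 CPM in SNHG5 siRNA cells, with a wide gap between the groups. APH1B rose by 0.77 ± 0.07 (SE) on the log2 scale, with an edgeR adjusted p of 5.90e-08. NCSTN, the subunit nicastrin, had a log2 fold change of 0.25 and APH1A, the alternative scaffold, 0.22 (edgeR adjusted p = 0.00188 and 0.00193).

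Of the 3 genes of furin and ADAM cleavage, ADAM17 fell, beside 19.9% of all genes tested that fell. Its log2 fold change was -0.19 (edgeR adjusted p = 0.0114), and -0.17 without control siRNA replicate 1 (edgeR adjusted p = 0.0580). ADAM10 and FURIN did not pass. Of the 3 tested ubiquitin ligases of ligands, MIB2 fell (-0.23, edgeR adjusted p = 0.0345), beside the same 19.9% of all genes tested. MIB2 no longer passed without either of control siRNA replicates 1 (-0.22) and 3 (-0.21) or either of SNHG5 siRNA replicates 2 (-0.18) and 3 (-0.24), nor with DESeq2 (-0.23, adjusted p = 0.101) or with the GC trend removed (-0.08, adjusted p = 0.488).

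Beside 20.3% of all genes tested that rose and 19.9% that fell, 1 of 7 co-activators rose and 3 fell. Besides MAML3, these were the acetyltransferase genes CREBBP (-0.22) and EP300 (-0.21), which no longer passed when any control library was left out (-0.26 to -0.17 for CREBBP and -0.23 to -0.18 for EP300) or without SNHG5 siRNA replicate 2 (-0.11 and -0.09). KAT2B, a further acetyltransferase named after its values were seen, rose by 0.21, and it no longer passed without either of control siRNA replicates 2 (0.16) and 3 (0.22) or either of SNHG5 siRNA replicates 1 (0.21) and 3 (0.16). Of 6 co-repressors that work with RBPJ, 2 rose and 0 fell, beside the same 20.3% and 19.9% of all genes tested. CIR1, which binds RBPJ, had a log2 fold change of 0.37 and the deacetylase gene HDAC1 had 0.33 (edgeR adjusted p = 0.00177 and 1.19e-04).

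Of 5 tested genes of receptor turnover and inhibition, 2 fell and 0 rose, beside 19.9% and 20.3% of all genes tested. NUMBL, a relative of the Notch inhibitor NUMB, went from 35.7 ± 1.76 to 28.5 ± 1.74 CPM (mean ± SD, n = 3 each; log2 fold change -0.32, edgeR adjusted p = 0.00172). FBXW7, which marks the intracellular receptor for breakdown, had a log2 fold change of -0.21 (edgeR adjusted p = 0.0410), and its call ended whichever library was left out, at -0.24 to -0.17.

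**Figure D3:**
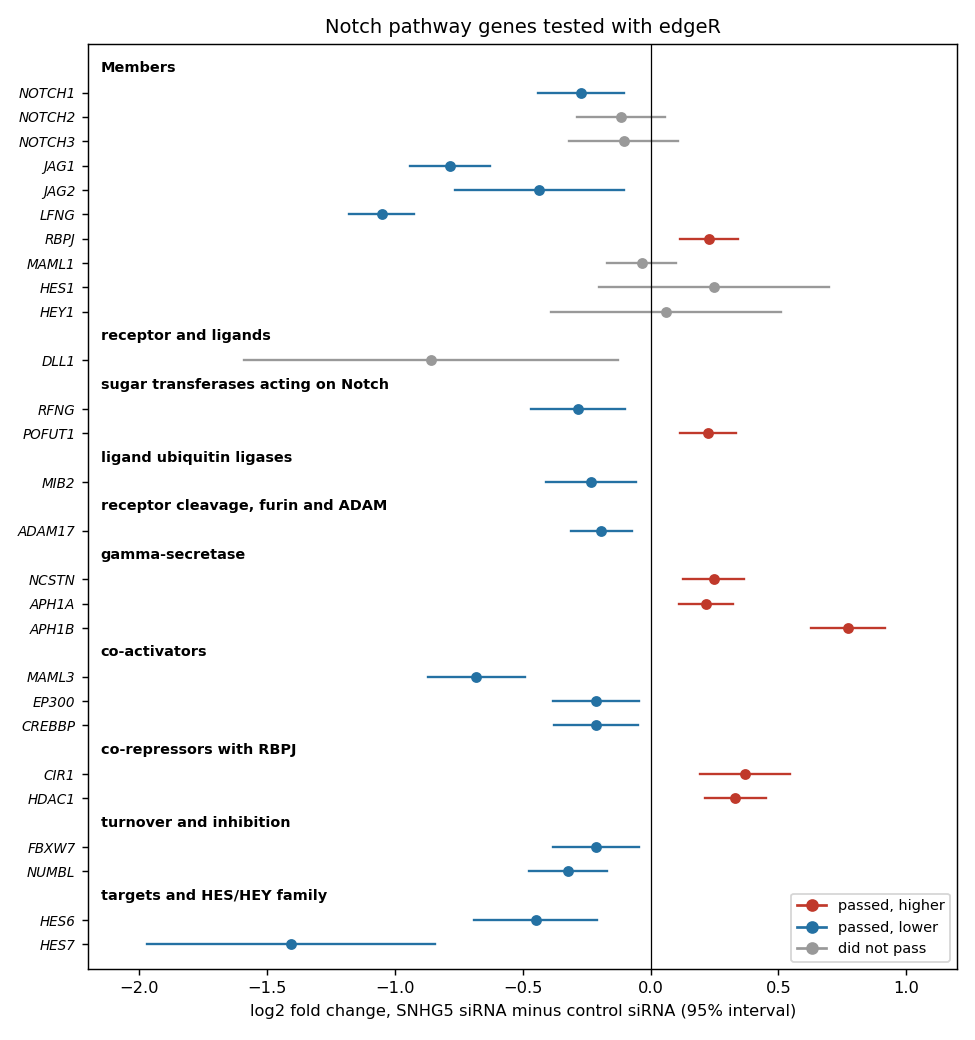
Log2 fold change (SNHG5 siRNA minus control siRNA, horizontal axis) with its 95% interval from the edgeR test, for the 10 members and other pathway genes. The other genes were chosen in each role by size of change among those that passed. DLL1, in whose role no gene passed, was chosen by highest mean CPM. Red passed and higher, blue passed and lower, grey did not pass. LFNG at -1.05 and JAG1 at -0.79 are the lowest members, HES7 at -1.41 is the lowest shown and APH1B at 0.77 the highest.

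Over the 6 libraries, the genes whose log2 CPM followed LFNG most closely included AFAP1L2 (Pearson r = 0.999) and CDH6 (0.998), among 10468 genes with a mean of at least 5 CPM. Those closest to RBPJ were NNT (0.997), TBC1D4 (0.996) and ZNF714 (0.996). The points share libraries and 2 groups, and 116 genes had an r above 0.99 with LFNG and 13 with RBPJ.

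**Figure D4:**
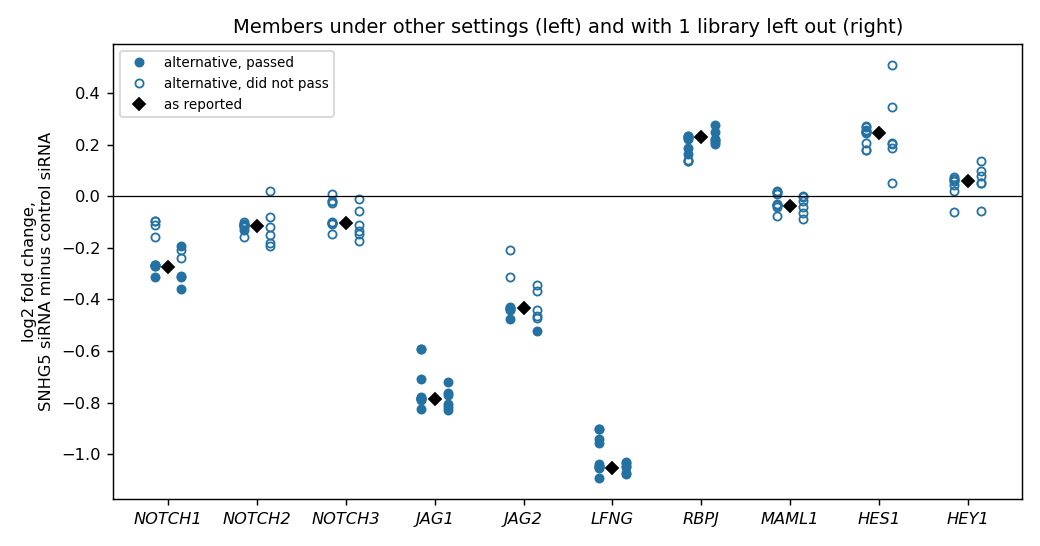
Log2 fold change (vertical axis) of each member as reported (black diamonds), under the other settings (left points) and with 1 library left out (right points); filled points passed at an adjusted p under 0.05 and open points did not. LFNG and JAG1 are filled throughout, RBPJ is open in the 3 FPKM settings, NOTCH1 and JAG2 change with the setting, and HES1 ranges from 0.05 to 0.51.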

How the data were processed

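The data were mRNA libraries (SMARTER mRNA-seq kit, 1 µg of total RNA) of KGN cells, 3 with control siRNA and 3 with SNHG5 siRNA. Trimmomatic and the build GRCh38 are named in the submitters' processing notes, without the order or role of steps. Which aligner, counting program, annotation and strand setting the authors used is not given in the sources used here. Whole reads per gene make up the deposited counts: the authors' table held whole-number counts for 20030 gene names, 27 of them turned into calendar dates and never named here. The deposited FPKM table held FPKM computed by the authors, used for levels between genes and as an alternative. Both tables held 0 columns of other samples.

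Counts were tested with edgeR 4.0.16 (quasi-likelihood test, TMM, filterByExpr, R 4.3.3), and 12508 genes were adjusted together by the Benjamini-Hochberg method with a threshold of 0.05. CPM are TMM-scaled. Each SE was derived from the edgeR test, as the absolute log2 fold change over the square root of its F statistic. The 95% intervals were built from that SE and a t quantile. Alternatives used DESeq2 1.42.0, limma 3.58.1 on log2(FPKM + 1) and log2(FPKM + 0.1), other scaling and filters, GC and length trends (98.7% of genes had both) and leaving out each library. The labels do not say whether replicates were separate cultures. The p-values set the group difference against the spread between these libraries, moderated over genes. Whether that covers the spread between separate cultures is not known. FPKM levels are given without depth, and 3 counts were taken as the floor (counting error only).

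Members and lists were chosen with earlier results of these data known. Named were the 10 members and, in each role of the other pathway genes, up to 3 passing genes by absolute log2 fold change or, with none passing, the one with the highest mean CPM; the 3 genes nearest by Pearson r to the largest passing change in each direction were added. Genes outside this rule are said to be named after their values were seen, or are listed to complete a role. Some genes and the results that need them are not reported here. Plots were made with matplotlib 3.10.9.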

Additional observations from a re-analysis of the deposited data

How the results depend on the processing

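LFNG, JAG1 and HES1 kept their direction and their side of the threshold in all 16 alternatives. Of the members, the count lower was 4, and with 1 library left out 2 to 4; it was 2 with the GC trend removed and 2 in each FPKM setting (8 members were tested with the filter and 10 with none). The count higher was 1, and 0 in each FPKM setting. Of the other pathway genes, 10 were lower, 4 to 9 with 1 library left out, and 3, 3 and 4 with log2(FPKM + 1), log2(FPKM + 0.1) and log2(FPKM + 1) with no filter. Over all genes, 2488 were lower as reported and 1496, 1494 and 1564 in those settings, and 50.5% of calls were higher, against 39.9% with upper quartile scaling.

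The log2 fold change of NOTCH1 was -0.10, -0.11 and -0.10 in the FPKM settings and -0.16 with the GC trend removed, and -0.36 to -0.19 with 1 library left out. That of JAG2 was -0.43 with DESeq2, -0.21 with log2(FPKM + 1) and no filter, -0.31 with the GC trend removed, and -0.52 to -0.34 with 1 library left out. JAG2 and HEY1 had no value in the filtered FPKM settings. That of RBPJ was 0.14 in each FPKM setting. None of these FPKM, DESeq2 or GC values passed, and the cause was not tested. With DESeq2, NOTCH1 (-0.27, adjusted p = 0.0147) and RBPJ (0.23, adjusted p = 3.89e-04) did pass. RBPJ also passed in edgeR with the GC trend removed (0.16, adjusted p = 0.0212).

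Signs turned only in members that did not pass: NOTCH2 (0.0192 without SNHG5 siRNA replicate 2), NOTCH3 (0.0091 with the GC trend removed), MAML1 (-0.0895 to 0.0017 with 1 library left out, 0.0173, 0.0191 and 0.0173 in the FPKM settings, 0.0092 with the GC trend removed) and HEY1 (-0.0566 without SNHG5 siRNA replicate 2 and -0.0595 in FPKM with no filter).

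The replicate numbers were not shown to pair libraries: deviations of same-numbered libraries correlated at 0.05, 0.13 and 0.03, those of different numbers at -0.12 to 0.08, and 4 of 6 libraries correlated best with their own number. With a replicate block, 2850 genes were higher and 2864 lower, 1 member was higher and 5 lower, and NOTCH2, at -0.13, passed (adjusted p = 0.0496). HES1, HEY1, JAG2 and the Delta-like genes had under 100 counts in each library, which limits the precision of their values.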
